A study of Mus musculus with 38 samples.

Results

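The *Galnt* genes encode the polypeptide N-acetylgalactosaminyltransferases, the enzymes that start mucin-type O-glycosylation, and the data here are their transcript levels in gonocytes of the fetal mouse testis. A list of 10 *Galnt* genes was taken by gene name from 3 tables of raw counts, and 9 of them were analysed in the *Inhba* tables, which hold 27633 genes. The *Inha* table holds 9798 genes, and 5 of the listed genes were analysed there. The genes were selected by name with earlier results of these data known, among them the difference between *Inhba* KO and *Inhba* WT at E13.5, which chose *Galnt6*. *Galnt6* is one of the transcripts the study listed for the E13.5 *Inhba* knockout, so its difference at that age is given as a description without a test.

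Gonocytes are the germ cells of the fetal testis, which leave the cell cycle between these ages. They were sorted by flow cytometry as the GFP-positive cells of *Oct4-Gfp* embryos of C57/Bl6/129svJ strain, and the 2 testes of an embryo were 1 sample. The *Inhba* line, in which the knockout makes no activin A, gave 4 *Inhba* KO embryos and 4 *Inhba* WT embryos at E15.5, and 4 *Inhba* KO embryos and 3 *Inhba* WT embryos at E13.5. The *Inha* line, in which loss of the inhibin alpha subunit raises activin, gave 2 *Inha* KO embryos and 2 *Inha* WT embryos at E13.5, in 2 littermate pairs. Every group carries the *Oct4-Gfp* transgene, and the 38 sequencing records come from 19 embryos, with 2 records but 1 column of counts for each. Both knockouts are constitutive, so the gonocytes developed in testes whose somatic cells were altered too.

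Each N-acetylgalactosaminyltransferase sits in the Golgi and moves GalNAc from UDP-GalNAc onto serine or threonine, and other enzymes then extend that first sugar. The isoenzymes differ in the sequences they prefer. Some act on bare peptide, as GALNT1, GALNT3, GALNT6 and GALNT11 do, whereas GALNT4, GALNT7, GALNT10 and GALNT12 prefer or need peptides that already carry GalNAc, so they add sugars beside earlier ones. These preferences are known mainly from the human enzymes.

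Promoters are shown for the listed genes with the largest age changes, *Galnt3* and *Galnt10*, which were higher at E15.5, and *Galnt7*, which was lower, and for *Galnt6*, the gene that the study listed. RefSeq windows of 300 bases around the start site (build GRCm38.p6) were found for 6 of the 9 genes, and *Galnt6* has 2, of which 1 is shown. Capitals mark GGGCGG, the GC box, and CAGAC, the short SMAD-binding element, read on either strand (CCGCCC and GTCTG on the other strand). The windows lie at chr2:66124744-66125043 on the minus strand for *Galnt3*, chr11:57645192-57645491 on the plus strand for *Galnt10*, chr8:57653006-57653305 on the minus strand for *Galnt7* and chr15:100729327-100729626 on the minus strand for *Galnt6*.
Galnt3: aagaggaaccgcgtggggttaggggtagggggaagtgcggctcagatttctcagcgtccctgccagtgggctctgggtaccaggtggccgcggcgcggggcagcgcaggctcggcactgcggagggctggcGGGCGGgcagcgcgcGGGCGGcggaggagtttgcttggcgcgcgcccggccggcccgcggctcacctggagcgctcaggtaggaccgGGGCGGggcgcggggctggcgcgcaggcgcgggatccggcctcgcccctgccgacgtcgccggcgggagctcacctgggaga
Galnt10: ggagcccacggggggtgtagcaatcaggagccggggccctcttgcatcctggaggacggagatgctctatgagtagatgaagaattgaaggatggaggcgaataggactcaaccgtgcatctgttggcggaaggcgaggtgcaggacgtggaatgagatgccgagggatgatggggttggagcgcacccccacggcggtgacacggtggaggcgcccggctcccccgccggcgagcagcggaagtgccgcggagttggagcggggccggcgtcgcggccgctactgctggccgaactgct
Galnt7: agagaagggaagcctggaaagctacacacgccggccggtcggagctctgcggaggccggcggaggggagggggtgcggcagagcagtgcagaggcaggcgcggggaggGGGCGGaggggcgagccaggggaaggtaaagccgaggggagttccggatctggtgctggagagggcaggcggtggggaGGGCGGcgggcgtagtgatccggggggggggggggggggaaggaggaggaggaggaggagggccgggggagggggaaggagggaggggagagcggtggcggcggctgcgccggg
Galnt6: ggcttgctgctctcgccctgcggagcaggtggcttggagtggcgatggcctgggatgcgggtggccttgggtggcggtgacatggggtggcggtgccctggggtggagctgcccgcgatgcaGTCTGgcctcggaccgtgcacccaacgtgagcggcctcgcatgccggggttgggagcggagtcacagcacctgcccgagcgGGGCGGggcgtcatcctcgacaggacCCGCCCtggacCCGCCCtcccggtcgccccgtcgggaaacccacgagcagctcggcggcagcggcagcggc
The GC box was matched 3 times for *Galnt3*, 0 times for *Galnt10*, 2 times for *Galnt7* and 3 times for *Galnt6*. The RefSeq start of the *Galnt3* window lies 201 bases from the nearest start in GENCODE vM21. By that annotation the GC boxes of *Galnt3* lie downstream of the start. The distance is 23 bases for *Galnt7* and 0 for *Galnt10* and *Galnt6*. Only the *Galnt6* window of these 4 holds CAGAC, in 1 place. Of 32851 mouse promoter windows of this length, 35.7% hold GGGCGG and 49.6% hold CAGAC, on either strand. None of the 4 holds CCAAT or TATAAA, which are in 37.4% and 13.6% of all windows. The windows for *Galnt3*, *Galnt7* and *Galnt6* are between 73.7% and 76.7% G or C, against a median of 52.7% over all windows, and *Galnt10* has 66.0%.

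The total count per embryo was 8466087 to 40600907 in the *Inhba* line and 6320539 to 11917167 in the filtered *Inha* table. Levels are given as cpm, the counts scaled to that total. The germ cell genes *Ddx4* and *Dazl* were at 452 cpm or more in every *Inhba* line embryo. Summed levels of 8 Sertoli cell genes were 7.07 to 76.3 cpm, beside 1726 to 4482 cpm for 6 gonocyte genes. *Inhba* itself was at 0.842 cpm or less in every gonocyte library of the line, and at E13.5 it was higher in the *Inhba* KO embryos (6 to 12 counts) than in the *Inhba* WT embryos (1 to 4 counts), so it does not check the genotype labels. The titles and column headers name the groups used here. The genotype field of the labels names KO embryo 928.1 as wild type and all 4 *Inhba* WT embryos of E15.5 as knockout. If that field were followed, no wild type group would remain at E15.5. At E13.5 a figure legend of the study gives n = 3 for *Inhba* KO and n = 4 for *Inhba* WT gonocytes. The titles give 4 *Inhba* KO and 3 *Inhba* WT embryos at that age, and the sources used here do not settle the difference. The study sorted 1 further E13.5 *Inhba* WT gonocyte sample and excluded it as an outlier.

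*Galnt1*, whose product is a broadly expressed transferase acting on bare peptide, had the highest level per exon length of the family at both ages and was much lower at E15.5. It lies at chr18:24205344-24286818 on the plus strand (GRCm38) with 14 exon blocks. In *Inhba* KO gonocytes it was at 69.2, 57.1, 71.4 and 73.4 cpm at E15.5, against 131.6, 143.9, 120.8 and 134.1 cpm at E13.5. In *Inhba* WT gonocytes it was at 54.8, 57.0, 47.7 and 57.5 cpm at E15.5, against 142.7, 138.7 and 121.0 cpm at E13.5. All E15.5 embryos lay below all E13.5 embryos in both genotypes. The log2 fold change of E15.5 over E13.5 was -1.07 (SE 0.114, edgeR adjusted p = 1.15e-06) in *Inhba* KO and -1.53 (SE 0.125, edgeR adjusted p = 9.81e-08) in *Inhba* WT.

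*Galnt7*, which encodes a transferase that needs a GalNAc already on its substrate, had the steepest fall of the family. It lies at chr8:57523828-57653032 on the minus strand. *Inhba* KO gonocytes had 6.02, 8.28, 8.397 and 8.10 cpm at E15.5, against 47.7, 46.8, 40.1 and 47.5 cpm at E13.5. *Inhba* WT gonocytes had 8.81, 7.77, 8.32 and 5.66 cpm at E15.5, against 51.6, 43.1 and 46.3 cpm at E13.5. The lowest E13.5 embryo was thus over 4 times the highest E15.5 embryo. The log2 fold change was -2.65 (SE 0.162, edgeR adjusted p = 1.93e-08) in *Inhba* KO and -2.84 (SE 0.170, edgeR adjusted p = 2.21e-08) in *Inhba* WT.

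*Galnt3*, known for the O-glycosylation that protects the hormone FGF23 from cleavage, moved the other way. It lies at chr2:66082766-66124994 on the minus strand. In *Inhba* KO gonocytes it was at 23.7, 33.5, 26.7 and 16.3 cpm at E15.5, against 2.71, 4.93, 8.35 and 2.64 cpm at E13.5. In *Inhba* WT gonocytes it was at 17.5, 37.2, 49.1 and 29.2 cpm at E15.5, against 4.45, 4.49 and 3.05 cpm at E13.5. The ages did not overlap in either genotype, with a log2 fold change of 2.36 (SE 0.355, edgeR adjusted p = 3.02e-05) in *Inhba* KO and 2.83 (SE 0.397, edgeR adjusted p = 1.26e-05) in *Inhba* WT.

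*Galnt10*, like *Galnt7* the gene of an enzyme that prefers glycosylated peptide, rose while *Galnt7* fell. It lies at chr11:57645442-57787514 on the plus strand. *Inhba* KO gonocytes had 20.7, 28.1, 24.7 and 15.3 cpm at E15.5, against 3.38, 7.08, 5.62 and 5.12 cpm at E13.5. *Inhba* WT gonocytes had 19.0, 28.9, 35.2 and 28.1 cpm at E15.5, against 3.79, 4.44 and 4.63 cpm at E13.5. All E15.5 embryos were above all E13.5 embryos. Its log2 fold change was 1.97 (SE 0.239, edgeR adjusted p = 3.77e-06) in *Inhba* KO and 2.47 (SE 0.266, edgeR adjusted p = 9.93e-07) in *Inhba* WT.

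*Galnt12*, the gene of a further enzyme with this preference, rose less. It lies at chr4:47091909-47123070 on the plus strand and averaged 9.69 ± 2.57 cpm at E15.5 against 3.85 ± 1.24 cpm at E13.5 in *Inhba* KO gonocytes (SD, n = 4 each). In *Inhba* WT gonocytes it averaged 10.4 ± 3.58 cpm at E15.5 (SD, n = 4) and 3.97 ± 0.766 cpm at E13.5 (SD, n = 3). Between the ages the log2 change was 1.24 (SE 0.291, edgeR adjusted p = 0.00142) in *Inhba* KO and 1.17 (SE 0.317, edgeR adjusted p = 0.00355) in *Inhba* WT. Its highest value, 15.6 cpm in *Inhba* WT embryo 941.3, stood well above the other E15.5 embryos of that genotype, which were at 7.93 to 10.01 cpm.

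**Figure D1:**
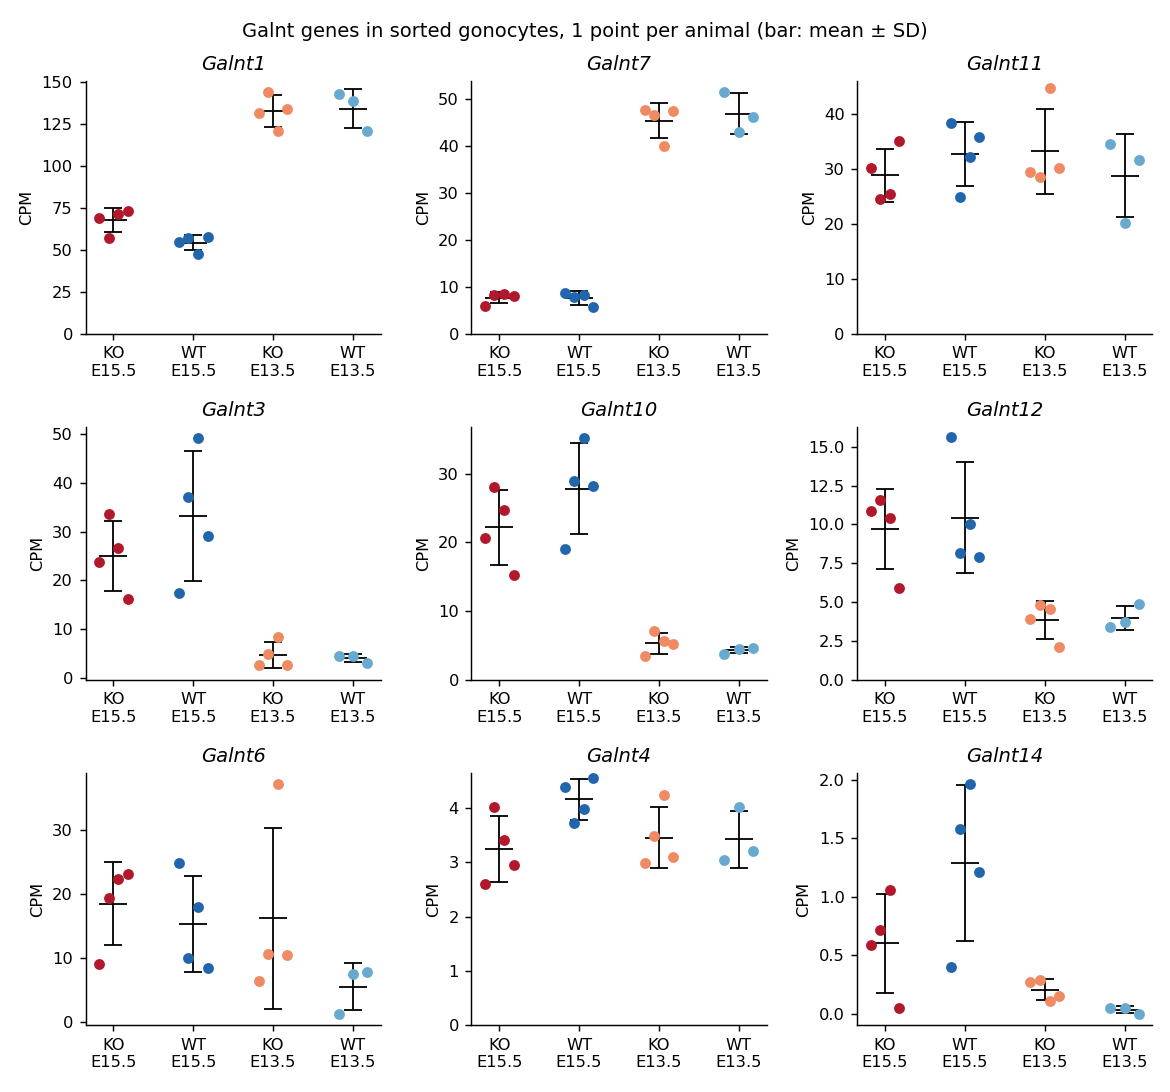
Level in cpm (y axis, each panel on its own scale from 0) of the 9 *Galnt* genes in every embryo of the *Inhba* line, with KO left of WT and E15.5 left of E13.5 on the x axis; points are embryos and black bars the mean ± SD. *Galnt1* and *Galnt7* are lower and *Galnt3*, *Galnt10* and *Galnt12* higher at E15.5 in both genotypes, and a single E13.5 KO embryo at 37.2 cpm stands out for *Galnt6*.

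The 5 genes so far made up the calls among the 8 genes of the list that passed the filter on low values (3 rose and 2 fell in each genotype). A gene was called at an adjusted p under 0.05 with a change above 1.5-fold. Over all genes tested the same rule called 54.3% in *Inhba* KO (29.1% up, 25.2% down, 14676 tested) and 62.1% in *Inhba* WT (34% up, 28.1% down, 15380 tested), so the 5 of 8 called are near the share of all genes called. The ages did not overlap for 5 of the 8 genes in *Inhba* KO and 6 of the 8 in *Inhba* WT, beside 57.2% of all genes tested in *Inhba* KO and 70.9% in *Inhba* WT. The median log2 fold change over the 8 genes was -0.01 in *Inhba* KO and 0.62 in *Inhba* WT, against 0.02 and 0.05 over all genes tested. Marker genes of other cell types were called as well, in both directions. Of tested interstitial mesenchyme genes 2 of 6 rose in *Inhba* KO and 4 of 5 in *Inhba* WT, where all 5 passed the filter through E15.5 alone. The summed level of all 9 such genes was 20.2 to 69.6 cpm at E15.5 against 16.5 to 31.6 cpm at E13.5 in *Inhba* KO, and 47.8 to 75.0 cpm at E15.5 against 3.26 to 12.2 cpm at E13.5 in *Inhba* WT. The summed level of 6 macrophage genes was 6.70 to 10.3 cpm at E15.5 against 3.54 to 4.95 cpm at E13.5 in *Inhba* KO, and 9.78 to 21.2 cpm at E15.5 against 2.53 to 3.16 cpm at E13.5 in *Inhba* WT. Of Sertoli cell genes, 0 rose and 5 fell of 7 tested in *Inhba* KO, and 1 rose and 1 fell of 6 in *Inhba* WT. Of the 5 that fell in *Inhba* KO, 4 passed the filter through E13.5 alone. The 1 that rose in *Inhba* WT passed it through E15.5 alone. Of endothelial genes, 3 rose and 1 fell of 4 in *Inhba* KO, and 4 rose and 1 fell of 5 in *Inhba* WT. Of those that rose, 1 in *Inhba* KO and 2 in *Inhba* WT passed the filter through E15.5 alone. The sum of the 6 endothelial genes was 54.3 to 93.7 cpm at E15.5 against 91.8 to 162.1 cpm at E13.5 in *Inhba* KO, and that of the 6 mesonephric epithelium genes was 30.8 to 35.2 cpm at E15.5 against 81.7 to 118.5 cpm at E13.5 in *Inhba* KO and 17.1 to 53.2 cpm at E15.5 against 97.3 to 117 cpm at E13.5 in *Inhba* WT. Of mesonephric epithelium genes, 1 rose and 1 fell of 3 tested in *Inhba* KO, and 3 rose and 1 fell of 5 in *Inhba* WT. The gene that fell was *Lhx1*, with a log2 fold change of -2.79 in *Inhba* KO and -4.835 in *Inhba* WT. The genes of this list that rose passed the filter through E15.5 alone. The endothelial gene that fell was *Pecam1*, at -2.58 in *Inhba* KO and -2.81 in *Inhba* WT. The study lists *Lhx1* among the changed transcripts of E15.5 *Inhba* KO gonocytes. Whether reads of *Lhx1* and *Pecam1* came from gonocytes or from other cells was not tested. The number of genes with a count was higher, at 24728 to 27172 at E15.5 against 22475 to 23918 at E13.5. The summed level of 6 gonocyte genes was 2370 to 3528 cpm at E15.5 against 3804 to 4482 cpm at E13.5 in *Inhba* KO, and 1726 to 3095 cpm at E15.5 against 3824 to 4232 cpm at E13.5 in *Inhba* WT. Of these 6 genes, 3 rose and 2 fell in *Inhba* KO, and 2 rose and 3 fell in *Inhba* WT. In *Inhba* KO, *Dazl* was at 855 to 1485 cpm at E15.5 against 1869 to 2102 cpm at E13.5. *Ddx4* went the other way there, at 762 to 887 cpm at E15.5 against 452 to 670 cpm at E13.5. The part of these marker levels and gene numbers in the *Galnt* changes was not tested. In bulk samples fewer cells of a type and less RNA per cell cannot be told apart.

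*Galnt4*, *Galnt11* and *Galnt6* were not called between the ages in either genotype. *Galnt4*, a gene of 1 exon block at chr10:99108159-99113247 on the plus strand, was low in every embryo, at 2.60 to 4.02 cpm in *Inhba* KO and 3.72 to 4.55 cpm in *Inhba* WT at E15.5, and at 2.99 to 4.23 cpm in *Inhba* KO and 3.03 to 4.02 cpm in *Inhba* WT at E13.5. Its log2 fold change with age was -0.17 (95% interval -0.61 to 0.28) in *Inhba* KO and 0.06 (95% interval -0.42 to 0.53) in *Inhba* WT, where it was -0.06 with no filter on low counts. It shares 8.25% of its exon length with *Poc1b* on the same strand, so some of its reads could have been shared or dropped. *Galnt11*, which encodes an enzyme known in frog embryos for glycosylating Notch1, lies at chr5:25221904-25265918 on the plus strand. It averaged 28.9 ± 4.82 cpm at E15.5 and 33.3 ± 7.73 cpm at E13.5 in *Inhba* KO gonocytes (SD, n = 4 each), and 32.8 ± 5.84 cpm at E15.5 (SD, n = 4) and 28.8 ± 7.55 cpm at E13.5 (SD, n = 3) in *Inhba* WT gonocytes. Its log2 fold change was -0.29 (95% interval -0.69 to 0.11) in *Inhba* KO and -0.03 (95% interval -0.47 to 0.40) in *Inhba* WT, where its sign depends on the scaling, at 0.01 with RLE factors and 0.19 with no scaling beyond the total.

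*Galnt6*, the closest relative of *Galnt3* by sequence, varied widely among the embryos of a group. It lies at chr15:100691813-100729376 on the minus strand. *Inhba* KO gonocytes had 9.10, 19.4, 22.4 and 23.2 cpm at E15.5, against 6.42, 10.7, 37.2 and 10.5 cpm at E13.5, and the ages overlapped. *Inhba* WT gonocytes had 24.8, 10.01, 17.96 and 8.51 cpm at E15.5, against 1.26, 7.45 and 7.79 cpm at E13.5, and the ages did not overlap. The age comparison uses the E13.5 embryos whose genotype difference chose *Galnt6*. That choice favours a larger rise with age in *Inhba* WT than in *Inhba* KO. The age values and p-values of *Galnt6* are therefore not an independent test. The log2 fold change was 0.15 (SE 0.537, edgeR adjusted p = 0.818) in *Inhba* KO and 1.26 (SE 0.611, edgeR adjusted p = 0.0744) in *Inhba* WT. With no scaling beyond the library total the *Inhba* WT value was 1.49 (edgeR adjusted p = 0.046), past the threshold. It shares 11.4% of its exon length with *Galnt6os* on the opposite strand, and whether reads were counted by strand is not given in the sources used here. *Galnt6os* itself had 0 to 13 counts per embryo.

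*Galnt14*, whose product is known in human cells for glycosylating TRAIL death receptors, did not pass the filter. It lies at chr17:73493228-73710453 on the minus strand. It had 5, 29, 22 and 1 counts at E15.5 against 5, 5, 2 and 3 counts at E13.5 in *Inhba* KO embryos. In *Inhba* WT embryos it had 15, 34, 42 and 23 counts at E15.5 against 1, 1 and 0 counts at E13.5, where 3 counts, the limit a count of 0 allows, would be 0.158 cpm in the embryo at 0. These values cover 0.0468 to 1.96 cpm at E15.5, all below the study's detection limit, and *Galnt14* was not tested.

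**Figure D2:**
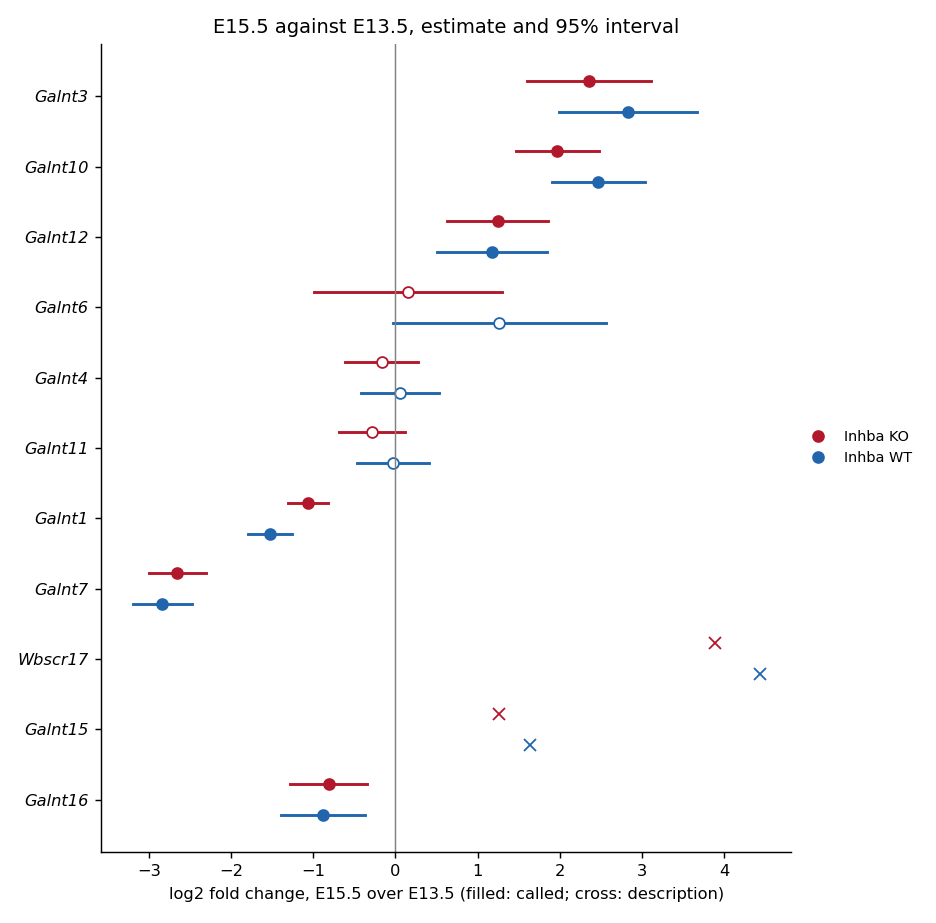
Log2 fold change of E15.5 over E13.5 (x axis) for each family gene tested in both genotypes (y axis), KO in red above WT in blue; circles are edgeR estimates, lines 95% intervals, filled circles are genes called, and crosses for *Wbscr17* and *Galnt15*, which passed the filter only through E15.5, are descriptions without an interval. The estimates for KO and WT lie on the same side of 0 for *Galnt3*, *Galnt10*, *Galnt12*, *Galnt1* and *Galnt7*, whereas *Galnt6* has wide intervals.

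Divided by exon length, the levels can be ordered between genes, and the order of the family changed with age. The family sums given here are over library totals. The TMM factors over all genes of the *Inhba* tables were 0.861 to 0.983 at E13.5 and 0.9999 to 1.19 at E15.5. The fold changes used TMM factors taken again over the genes tested in each comparison. With the factors over all genes the sums at E15.5 would be lower relative to those at E13.5. The summed level of all 18 family genes analysed was 45.2 ± 2.85 cpm per kb in *Inhba* KO and 46.4 ± 3.64 cpm per kb in *Inhba* WT at E15.5 (SD, n = 4 each), and 50.9 ± 5.71 cpm per kb in *Inhba* KO (SD, n = 4) and 47.4 ± 1.56 cpm per kb in *Inhba* WT (SD, n = 3) at E13.5. In *Inhba* WT gonocytes at E13.5, *Galnt1* came first with 24.3 ± 2.09 cpm per kb, *Galnt7* second with 8.94 ± 0.826 and *Galnt11* next with 4.201 ± 1.10. The ranges of *Galnt1* and *Galnt7*, and of *Galnt7* and *Galnt11*, did not overlap, while *Galnt11* overlapped with *Galnt16*, the next in order. *Galnt12* did not overlap *Galnt16* above it, and *Galnt12*, *Galnt6*, *Galnt3*, *Galnt10* and *Galnt4* followed between 1.74 and 0.672 cpm per kb, each of these 5 overlapping the next.

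At E15.5 in *Inhba* WT gonocytes the first was still *Galnt1*, with 9.83 ± 0.815 cpm per kb, but *Galnt3* came second with 7.60 ± 3.05 and its range overlapped that of *Galnt1*. *Galnt11*, *Galnt10*, *Galnt12* and *Galnt6* followed between 4.79 and 3.96 cpm per kb and overlapped one another. *Galnt7* came ninth with 1.46 ± 0.265. In *Inhba* KO gonocytes at E15.5, *Galnt1* stood at 12.3 ± 1.33 cpm per kb and did not overlap *Galnt3*, second at 5.73 ± 1.64, and *Galnt7* again came ninth with 1.47 ± 0.214. *Galnt1* and *Galnt7* together held 30.6 ± 4.26% of the family sum at E15.5 against 65.1 ± 9.98% at E13.5 in *Inhba* KO, and 24.5 ± 3.18% at E15.5 against 70.1 ± 3.58% at E13.5 in *Inhba* WT. *Galnt3* and *Galnt6* together held 23.1 ± 3.60% at E15.5 against 9.79 ± 6.65% at E13.5 in *Inhba* KO, and 24.7 ± 4.55% at E15.5 against 4.97 ± 1.96% at E13.5 in *Inhba* WT (SD, n as above). These shares describe the same counts as the fold changes and were not tested.

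**Figure D3:**
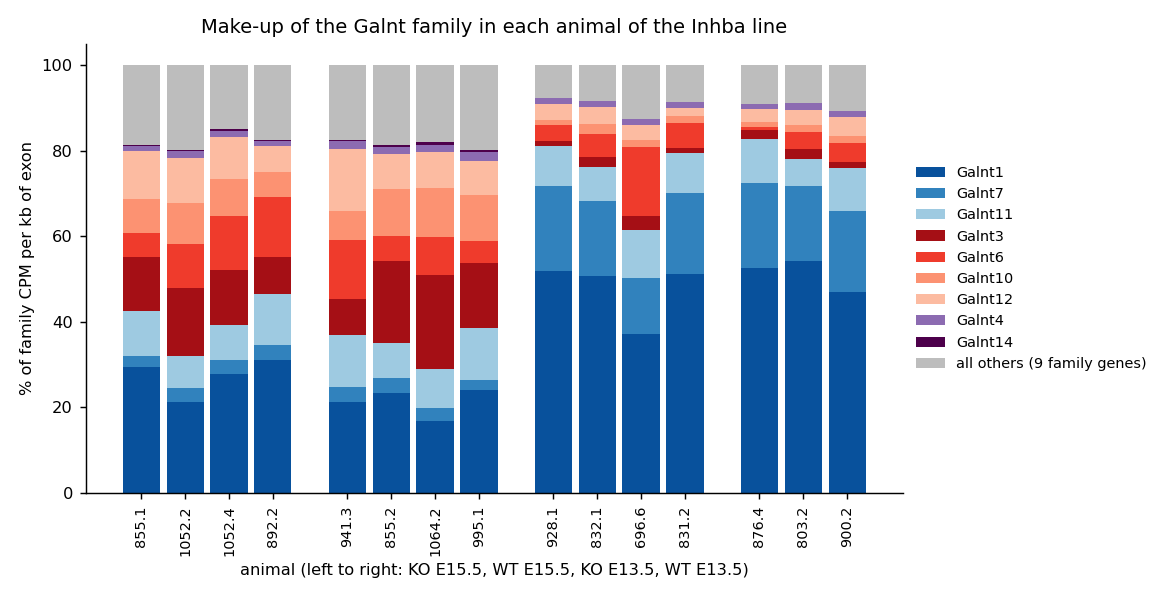
Share of the summed family level (y axis, percent of cpm per kb of exon) held by each *Galnt* gene in every embryo of the *Inhba* line (x axis, embryo number, KO E15.5 then WT E15.5, KO E13.5 and WT E13.5); grey is the sum of the 9 other family genes. Blue shades, *Galnt1*, *Galnt7* and *Galnt11*, fill most of each E13.5 bar, with embryo 696.6 the lowest among them.

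Embryos of 1 age were not all equally far apart from the other age. Over 7267 genes called with age in both genotypes, with the family left out, each embryo was placed between the E13.5 mean at 0 and the E15.5 mean at 1. At E15.5 the lowest were *Inhba* KO embryo 892.2 at 0.731 and *Inhba* WT embryo 941.3 at 0.896, and the other 6 lay between 0.987 and 1.18. At E13.5, KO embryo 696.6 was at 0.169 and the other 6 between -0.070 and 0. At E15.5, embryos 892.2 and 941.3 had the lowest levels of both *Galnt3* and *Galnt10* in their groups. The *Inhba* WT embryos of E15.5 followed the order of position for both genes. In *Inhba* KO, embryo 1052.4 at 0.987 was placed below embryo 855.1 at 1.003. Embryo 1052.4 nevertheless had more *Galnt3*, at 26.7 against 23.7 cpm, and more *Galnt10*, at 24.7 against 20.7 cpm. Embryo 696.6 had the highest *Galnt3* of any E13.5 embryo. The highest *Galnt10* of E13.5 was in KO embryo 832.1, at 7.08 cpm, with embryo 696.6 at 5.62 cpm. Without embryos 892.2 and 941.3, an alternative chosen after seeing the data, the log2 fold change of *Galnt3* was 2.51 in *Inhba* KO and 3.04 in *Inhba* WT.

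Loss of activin A was examined at each age. At E15.5, 0 of the 8 genes were called between *Inhba* KO and *Inhba* WT by edgeR, where 0.00658% of 15209 genes tested were called, and none of the 8 was called by DESeq2 or limma-voom. The groups overlapped for all 8, while 3.85% of all genes tested did not overlap. At an unadjusted p under 0.05 it was 1 of 8, beside 10.5% of all genes tested. That gene was *Galnt1*, at 69.2, 57.1, 71.4 and 73.4 cpm in *Inhba* KO gonocytes and 54.8, 57.0, 47.7 and 57.5 cpm in *Inhba* WT gonocytes. The groups overlapped only through KO embryo 1052.2, at 57.1 cpm. Its log2 fold change was 0.38 (SE 0.118, edgeR adjusted p = 0.47), and over 17 alternatives it was 0.32 to 0.50, with adjusted p between 0.119 and 0.979.

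*Galnt3* and *Galnt10* were a little lower in *Inhba* KO gonocytes at E15.5, but within the spread. *Galnt3* averaged 25.1 ± 7.15 cpm in *Inhba* KO and 33.2 ± 13.3 cpm in *Inhba* WT (SD, n = 4 each), a log2 fold change of -0.35 (95% interval -1.03 to 0.33). *Galnt10* averaged 22.2 ± 5.50 cpm in *Inhba* KO and 27.8 ± 6.66 cpm in *Inhba* WT (SD, n = 4 each), a log2 fold change of -0.27 (95% interval -0.73 to 0.20). For *Galnt7* the interval was narrow, with a log2 fold change of 0.08 (95% interval -0.26 to 0.42). The intervals of *Galnt4*, *Galnt6*, *Galnt11* and *Galnt12* also include 0, the widest being that of *Galnt6*, from -0.79 to 1.47.

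At E13.5 no gene of 12739 tested was called between *Inhba* KO and *Inhba* WT by edgeR (0%), and 2.02% had an unadjusted p under 0.05. DESeq2 called 8 genes and limma-voom 1, none of them in the list. The groups overlapped for all 8 listed genes, while 4.03% of all genes tested did not overlap. Leaving aside *Galnt6*, none of the other 7 genes had an unadjusted p under 0.05. The log2 fold change was -0.02 (95% interval -0.26 to 0.23) for *Galnt1*, at 132.6 ± 9.50 cpm in *Inhba* KO (SD, n = 4) and 134.1 ± 11.6 cpm in *Inhba* WT (SD, n = 3), and -0.04 (95% interval -0.38 to 0.29) for *Galnt7*. The other 5 lay between -0.07 and 0.30.

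For *Galnt6* the E13.5 values are a description, since this contrast put it on the study's list. *Inhba* KO gonocytes had 116, 184, 669 and 208 counts, or 6.42, 10.7, 37.2 and 10.5 cpm, and *Inhba* WT gonocytes had 25, 141 and 148 counts, or 1.26, 7.45 and 7.79 cpm. The groups overlapped, because KO embryo 928.1 was below WT embryos 803.2 and 900.2. The log2 fold change was 1.51. It rested on the highest and the lowest embryo, since it was 0.78 without KO embryo 696.6 and 1.05 without WT embryo 876.4. Without KO embryo 928.1, whose genotype field disagrees with its title, it was 1.77. No fit was run with that embryo as *Inhba* WT. In the same embryos the summed levels of 4 of the 7 marker lists chosen for other cell types were higher in *Inhba* KO without overlap. The sums were at 16.5 to 31.6 cpm against 3.26 to 12.2 cpm in *Inhba* WT for 9 mesenchyme genes. They were at 8.30 to 13.1 cpm against 3.49 to 5.74 cpm in *Inhba* WT for 6 Leydig cell genes. For 6 macrophage genes they were at 3.54 to 4.95 cpm against 2.53 to 3.16 cpm in *Inhba* WT. For 6 erythroid genes they were at 6.70 to 11.96 cpm against 3.01 to 3.89 cpm in *Inhba* WT. The other 3 lists overlapped, at 11.95 to 76.3 cpm in *Inhba* KO against 8.84 to 26.3 cpm in *Inhba* WT for 8 Sertoli cell genes, at 91.8 to 162.1 cpm against 103.9 to 151.8 cpm in *Inhba* WT for 6 endothelial genes, and at 81.7 to 118.5 cpm against 97.3 to 117 cpm in *Inhba* WT for 6 mesonephric epithelium genes. In *Inhba* WT, 1 Leydig, 2 macrophage and 3 erythroid genes had no count, and in *Inhba* KO 1 macrophage gene had none. KO embryo 696.6 had the highest mesenchyme sum of E13.5. KO embryo 928.1 had the lowest *Galnt6* and the lowest mesenchyme sum of its group, but the highest Sertoli sum, at 76.3 cpm. WT embryo 876.4, the lowest in *Galnt6*, had the highest mesenchyme sum of its group, at 12.2 cpm. The part of these marker genes in the *Galnt6* values was not tested.

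Whether the age change differed between the genotypes was tested as the interaction. The interaction contains the E13.5 difference that chose *Galnt6*, so for that gene it is not an independent test. None of the 8 genes was called by edgeR, DESeq2 or limma-voom, and edgeR called 0% of 15841 genes tested. At an unadjusted p under 0.05 it was 1 of 8, beside 6.1% of all genes. This was *Galnt1*, which fell by 1.07 on the log2 scale in *Inhba* KO and by 1.53 in *Inhba* WT, with a difference of 0.42 (SE 0.171, edgeR adjusted p = 0.772) in the interaction fit, which has its own set of tested genes. The difference was -0.52 (95% interval -1.58 to 0.54) for *Galnt3*, -0.55 (95% interval -1.27 to 0.17) for *Galnt10* and 0.14 (95% interval -0.35 to 0.62) for *Galnt7*. The 4 comparisons within the *Inhba* line share their groups, so their values are not independent of each other.

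**Figure D4:**
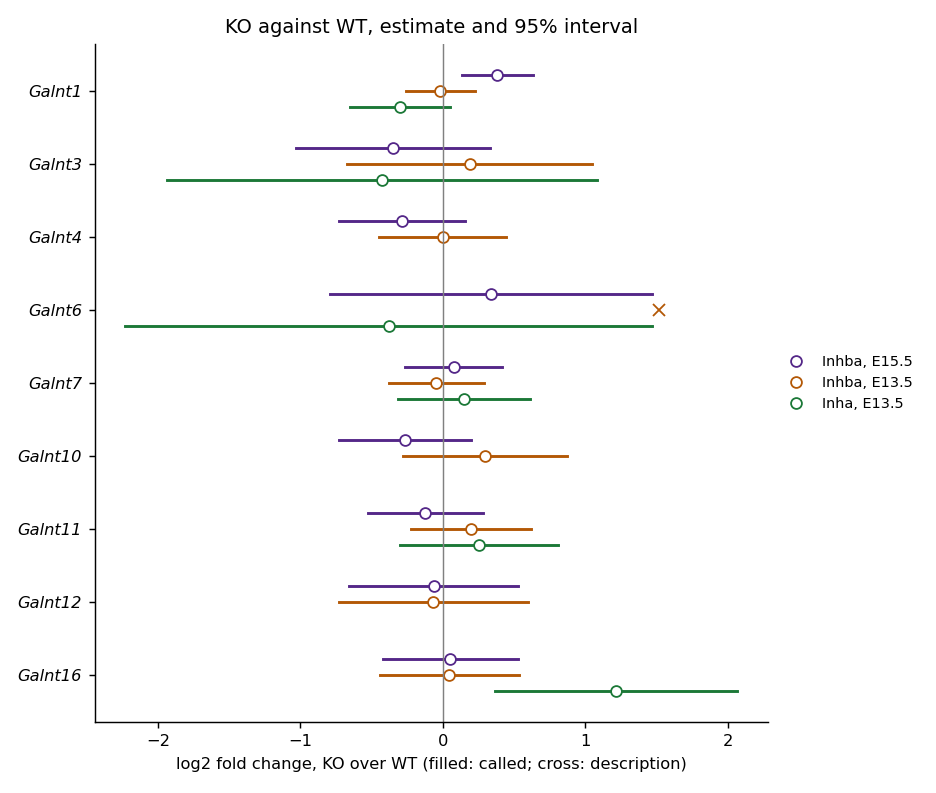
Log2 fold change of KO over WT (x axis) for the *Galnt* genes (y axis) in the *Inhba* line at E15.5 (purple) and E13.5 (orange) and in the *Inha* line at E13.5 (green); circles are edgeR estimates and lines 95% intervals, and the cross for *Galnt6* at E13.5 in the *Inhba* line is a description without an interval. All circles are open, as no gene shown was called.

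In the *Inha* line, where activin is raised, 0 of the 5 genes analysed were called between *Inha* KO and *Inha* WT by edgeR with the littermate pair as a block, where 0.357% of 9798 genes were called. None had an unadjusted p under 0.05, beside 9.32% of all genes tested, and DESeq2 and limma-voom called none of the 5. *Galnt1* was at 141.7 and 125.9 cpm in *Inha* KO and 154.2 and 155.1 cpm in *Inha* WT, without overlap, and 11.3% of all genes tested were lower without overlap. Its log2 fold change was -0.30 (95% interval -0.65 to 0.05). *Galnt3* was at 5.45 and 5.22 cpm in *Inha* KO and 7.12 and 6.36 cpm in *Inha* WT, also without overlap, with a log2 fold change of -0.43 (95% interval -1.93 to 1.08).

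*Galnt6* differed more between the litters of this line than between the genotypes. In pair 1 it was at 5.71 cpm in *Inha* KO and 10.5 cpm in *Inha* WT, and in pair 2 at 0.949 cpm in *Inha* KO and 0.589 cpm in *Inha* WT, or 6 and 5 counts. KO minus WT on the log2 scale was -0.89 in pair 1 and 0.42 in pair 2. *Galnt11* also changed direction, at -0.38 in pair 1 and 0.89 in pair 2. *Galnt7* was at 50.3 and 100.1 cpm in *Inha* KO and 46.8 and 77.4 cpm in *Inha* WT, with the higher value of each genotype in pair 2. The cpm of this table are over totals that the study filtered, and are not compared with those of the *Inhba* line.

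Of the rest of the family, 9 genes were in the *Inhba* tables, and 3 passed the filter between the ages in each genotype. *Wbscr17* and *Galnt15* passed the filter only through the E15.5 embryos, where they are high, so the filter favoured a rise, and their values are a description. *Wbscr17*, the older symbol of *Galnt17*, was at 31.1 ± 11.0 cpm at E15.5 against 2.02 ± 2.21 cpm at E13.5 in *Inhba* KO (SD, n = 4 each), and at 28.4 ± 5.69 cpm at E15.5 (SD, n = 4) against 1.13 ± 0.187 cpm at E13.5 (SD, n = 3) in *Inhba* WT. Its E13.5 values in *Inhba* KO were 0.609, 0.754, 1.42 and 5.29 cpm. The fitted log2 fold changes with age were 3.89 in *Inhba* KO and 4.43 in *Inhba* WT for *Wbscr17*, and 1.26 in *Inhba* KO and 1.64 in *Inhba* WT for *Galnt15*. *Galnt16* fell by 0.81 on the log2 scale (edgeR adjusted p = 0.00432) in *Inhba* KO and by 0.88 (edgeR adjusted p = 0.00355) in *Inhba* WT. Without KO embryos 1052.2 and 855.1, whose *Inhba* levels of 0.665 and 0.591 cpm lay within the 0.466 to 0.842 cpm of the *Inhba* WT embryos of E15.5, the *Inhba* KO value of *Galnt16* was -0.58 (edgeR adjusted p = 0.0898), short of the threshold. Without KO embryo 696.6 *Galnt16* was at -0.58 (edgeR adjusted p = 0.0192), short of 1.5-fold. *Galnt5*, *Galnt9*, *Galnt13*, *Galnt18*, *Galntl5* and *Galntl6* were at 4.12 cpm or less in every embryo. In the *Inha* line *Galnt16* was at 44.8 and 14.2 cpm in *Inha* KO and 16.3 and 6.48 cpm in *Inha* WT, higher in *Inha* KO in both pairs, by 1.41 and 0.97 on the log2 scale. Its log2 fold change of 1.22 (SE 0.433, edgeR adjusted p = 0.25) was not called.

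Genes before and after the *Galnt* step were counted by lists. Of 14 tested enzymes that start other kinds of glycan, 0 rose and 9 fell at E15.5 in *Inhba* KO, and 0 rose and 10 fell in *Inhba* WT, with median log2 fold changes of -0.73 in *Inhba* KO and -0.88 in *Inhba* WT. Over all genes tested, 29.1% rose and 25.2% fell in *Inhba* KO and 34% rose and 28.1% fell in *Inhba* WT, with medians of 0.02 and 0.05. *Eogt*, 1 of the 9 in *Inhba* KO, passed the filter there through E13.5 alone. The genes that fell included *Colgalt1*, which starts the glycans of collagen, at 15.5 ± 2.59 cpm at E15.5 against 58.2 ± 2.51 cpm at E13.5 in *Inhba* KO (SD, n = 4 each), and at 11.9 ± 0.758 cpm at E15.5 (SD, n = 4) against 59.0 ± 3.45 cpm at E13.5 (SD, n = 3) in *Inhba* WT. *Stt3a* and *Stt3b*, the catalytic subunits of the N-glycan transferase complex, and *Ugcg*, which starts glycosphingolipids, fell in both genotypes. For *Stt3b* the log2 fold change was -0.97 (SE 0.117, edgeR adjusted p = 3.76e-06) in *Inhba* KO and -1.22 (SE 0.125, edgeR adjusted p = 6.35e-07) in *Inhba* WT.

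Of the enzymes that build on the first GalNAc, 4 rose and 3 fell of 13 tested in *Inhba* KO, and 5 rose and 3 fell of 15 tested in *Inhba* WT. *C1galt1*, the core 1 galactosyltransferase, fell by 1.10 on the log2 scale (edgeR adjusted p = 4.34e-05) in *Inhba* KO and by 1.30 (edgeR adjusted p = 1.09e-05) in *Inhba* WT. The sialyltransferase gene *St6galnac3* rose, by 1.46 (edgeR adjusted p = 2.3e-05) in *Inhba* KO and by 1.70 (edgeR adjusted p = 1.05e-05) in *Inhba* WT. *St6galnac1*, which caps the bare GalNAc with sialic acid, had 0 counts in all 7 E13.5 embryos, and was at 0.725 to 4.33 cpm in the *Inhba* WT embryos of E15.5. It passed the filter only through those embryos and is among the 5, and it was not tested in *Inhba* KO. Of the genes that rose, 2 of the 4 in *Inhba* KO and 3 of the 5 in *Inhba* WT passed the filter through E15.5 alone. The 7 of 13 called in *Inhba* KO and 8 of 15 in *Inhba* WT are near the shares of all genes called, 54.3% in *Inhba* KO and 62.1% in *Inhba* WT. Of 12 genes for the supply of UDP-GalNAc, 1 rose and 3 fell in *Inhba* KO, and 4 rose and 3 fell in *Inhba* WT, below the share of all genes called in *Inhba* KO and near it in *Inhba* WT. In *Inhba* WT, 1 of the 4 that rose passed the filter through E15.5 alone, and 1 of the 3 that fell through E13.5 alone. *Pgm3* and *Gnpnat1*, enzymes of the hexosamine route to UDP-GlcNAc, fell in both genotypes, and *Nagk*, which salvages GlcNAc, rose in both.

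Of the proteins known to carry O-GalNAc glycans, 5 rose and 4 fell of 15 tested in *Inhba* KO, and 9 rose and 4 fell of 18 tested in *Inhba* WT. Of those that rose, 4 of the 5 in *Inhba* KO and 8 of the 9 in *Inhba* WT passed the filter through E15.5 alone, among them the 3 tested only in *Inhba* WT, so the filter favoured genes that rose in these counts. Of all genes, 54.3% were called in *Inhba* KO and 62.1% in *Inhba* WT. The gene that rose after passing at both ages was *Lrp1* in each genotype. *Lrp1*, an endocytic receptor, was at 85.4 ± 25.8 cpm at E15.5 against 15.98 ± 3.27 cpm at E13.5 in *Inhba* KO (SD, n = 4 each), and at 101.5 ± 34.2 cpm at E15.5 (SD, n = 4) against 14.5 ± 1.01 cpm at E13.5 (SD, n = 3) in *Inhba* WT. *Cd34* and the mucin gene *Muc4* passed only through E15.5 in both genotypes, and at E13.5 *Cd34* had 1 to 14 counts and *Muc4* 0 to 3 counts per embryo. None of the genes in these 4 lists was called by edgeR between KO and WT. At an unadjusted p under 0.05 it was 5 of 59 tested in the *Inhba* line at E15.5, beside 10.5% of all genes tested there, 1 of 48 in the *Inhba* line at E13.5, beside 2.02%, and 8 of 44 in the *Inha* line, beside 9.32%.

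**Figure D5:**
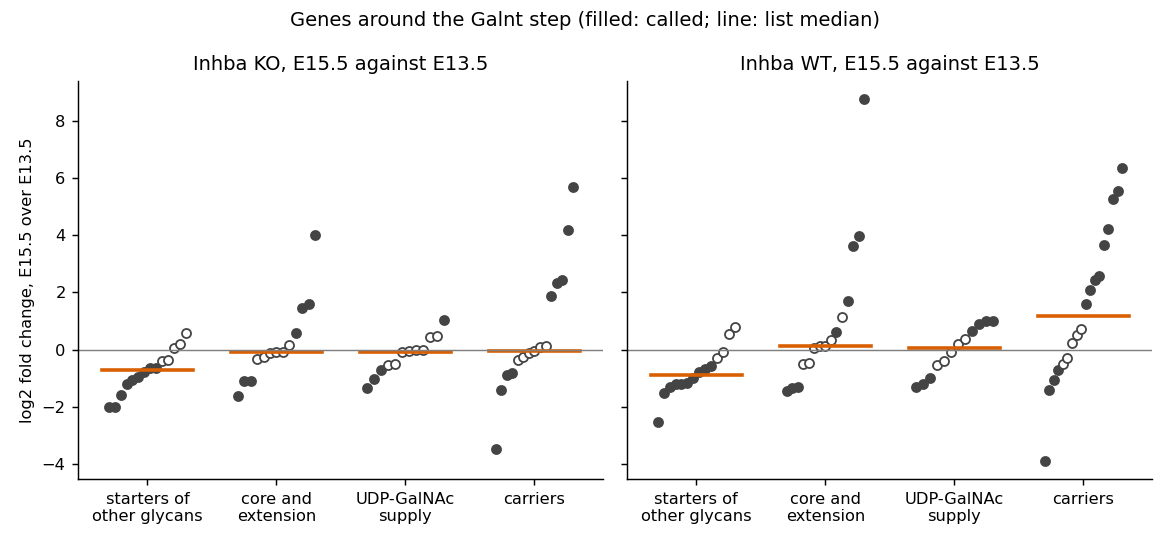
Log2 fold change of E15.5 over E13.5 (y axis) for every tested gene of 4 lists (x axis), in *Inhba* KO (left) and *Inhba* WT (right); points are genes, filled where called, and orange lines are list medians. The enzymes that start other glycans have 9 filled points below 0 in KO and 10 in WT with none above, while the carriers spread to both sides.

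To see which genes shared the spread of *Galnt6*, the deviation of each embryo from its group mean was compared over the 15 *Inhba* line embryos for 10608 genes. The 5 most alike were *Zfp335* (Pearson r = 0.90), *Xist* (r = 0.87), *Slc30a7* (r = 0.86), *Cntfr* (r = 0.86) and *Rasgrp1* (r = 0.85), which are the highest of all these genes and carry no test. Without embryos 696.6 and 876.4, which lie farthest from the median, r was 0.77 to 0.85 for them. *Xist*, the RNA of X inactivation, was at 21.9 cpm in E13.5 KO embryo 696.6, against 3.34 to 10.7 cpm in the other E13.5 embryos. In the E15.5 embryos *Xist* was at 29.5 to 50.7 cpm. Among the listed genes *Galnt4* had r = 0.65 with *Galnt6* and *Galnt3*, its closest relative, r = 0.15. Each point is an embryo, and library depth differs between embryos.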

How the data were processed

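RNA of sorted gonocytes was amplified by SPIA and sequenced single end. With RNAsik, the authors used STAR 2.5.2b for alignment to mouse GRCm38, annotated by Ensembl 84, and deposited raw counts per gene in 1 table for each line and age. The submitters' processing notes also name Subread 1.5.2 and featureCounts. The deposited *Inha* counts had been filtered by the authors (mitochondrial genes, genes under 2 cpm). How the 2 records of an embryo were combined into its count column is not given in the sources used here. No column of values was left unused. Counting intervals and floors cover counting error only.

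Counts were fitted as deposited with edgeR 4.0.16 (robust quasi-likelihood, TMM) in R 4.3.3, with a fit over all 15 *Inhba* line embryos for the tested genes of each comparison and a separate fit over 4 *Inha* line embryos with the littermate pair as a block. Pairs come from the labels, and across genes the correlation between littermates, taken after removing each group's mean, was 0.26. Genes above 2.391 cpm in 2 embryos of a comparison were tested (*Inha*: 2 cpm), and p-values were adjusted by Benjamini-Hochberg over all of them. Calls needed an adjusted p under 0.05 and a log2 change beyond 0.585. Intervals used the moderated t quantile. Alternatives were RLE factors, no filter, filterByExpr, DESeq2 1.42.0, limma-voom (limma 3.58.1), no fold threshold, only the groups compared, no block, embryos left out and effective library sizes for levels. A further 2 alternatives (without embryos 941.3 and 892.2, and no scaling beyond the total) were chosen after seeing the data. The fits were tested on simulated data with known changes. Of simulated 2-fold changes, 62% were called between *Inhba* KO and WT at E13.5 and 75% at E15.5. Between the ages 79% were called in *Inhba* KO and 76% in *Inhba* WT. For the interaction it was 30%, and for the *Inha* line 34%.

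Gene positions and exon lengths are from GENCODE vM21 (GRCm38), which differs from the annotation the authors counted with. All listed genes are named, with up to 4 called genes of each other list by smallest p. The members and lists were chosen with earlier results of these data known. One listed gene was not analysed here, and the values of 1 gene of the carrier list are not reported here. Littermates of the *Inha* line share the embryo number before the point, and in the *Inhba* line KO 855.1 and WT 855.2 share it, as do KO 1052.2 and 1052.4. Whether *Inhba* line embryos were littermates is not given in the labels, and the fits treat each embryo as separate.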

Additional observations from a re-analysis of the deposited data

Results flagged for a closer look

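A single embryo stood apart from the other 3 of its group for 4 of the 27 gene and group combinations with 4 embryos. The rule marks about 1 in 20 by chance for a single combination. These combinations share embryos and are not independent, so the count cannot be set against that rate. The share of all genes marked by the same rule is not given here. In *Inhba* KO at E13.5, embryo 696.6 was the highest for *Galnt6* at 37.2 cpm (others 6.42 to 10.7 cpm) and for *Galnt11* at 44.8 cpm (others 28.7 to 30.2 cpm), and the lowest for *Galnt7* at 40.1 cpm (others 46.8 to 47.7 cpm). In *Inhba* KO at E15.5, embryo 855.1, the shallowest of the *Inhba* line at 8466087 counts, was the lowest for *Galnt7* at 6.02 cpm (others 8.10 to 8.397 cpm). Embryo 696.6 was also the E13.5 embryo placed nearest to E15.5 over all age-changed genes. No cause was tested.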

How the results depend on the processing

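The number of listed genes called kept within 1.5 times its main value in every comparison and alternative run, and no called value changed sign. There were 58 sign changes, all of values that were not called. The number of all genes called moved more. At E13.5 between *Inhba* KO and WT it was 0, and 8 by DESeq2, 1 by limma-voom, 2 with only the groups compared and 0 to 3 with an embryo left out (1 without KO embryo 696.6, 3 without WT embryo 876.4). At E15.5 it was 1, and 25 by DESeq2, 3 without KO embryos 1052.2 and 855.1, 2 without embryos 941.3 and 892.2 and 1 to 3 with an embryo left out (2 without KO embryo 1052.2, 3 without WT embryo 855.2). For the interaction it was 0, and 11 by DESeq2, 1 without embryos 941.3 and 892.2 and 0 to 2 with an embryo left out (1 without WT embryo 876.4, 2 without WT embryo 855.2). With no filter on low counts, 14912 genes were called with age in *Inhba* WT and 12084 in *Inhba* KO. For *Inha* the littermate pair as a block gave 35 genes, no block gave 0 and DESeq2 gave 12, with none of the 5 listed genes in any. Leaving out an *Inha* embryo could not be fitted with the block. Other family genes called with age numbered 3 in each genotype, 8 in WT and 7 in KO with no filter, 6 in WT with filterByExpr and 1 in KO without embryos 1052.2 and 855.1. In these cases the cause was not tested. No filter and no scaling moved the median of all genes in the WT age comparison to 0.45 and 0.27, against 0.05. Levels over effective library sizes moved by over 1 SD for 9 of the group means, among them *Galnt1* in WT, at 47.8 cpm at E15.5 against 149.9 cpm at E13.5. Counting error is largest where counts are few, as for *Galnt14*, which had 0 to 42 counts per embryo.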
